A study of Mus musculus with 192 samples.

Results

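The comparison described here sets mouse dendritic cells that received the ligands PAM and HMW together against cells that received PAM alone or HMW alone. The members are the 3 PAM + HMW libraries, the 3 PAM libraries and the 3 HMW libraries, chosen by their labels, 9 libraries of a series of 64 groups with 3 libraries each. All were bone marrow-derived dendritic cells of female C57BL/6J mice aged 6 to 8 weeks, grown with GM-CSF, plated at 100000 cells per well and stimulated for 6 hours. Unstimulated Ctrl cells (3 libraries) served as the baseline, and the series further holds the other single ligands, all 21 pairs and all 35 triplets of 7 ligands in 3 libraries each. The labels give no dose and do not say whether replicates came from separate mice or cultures, so the p-values measure the spread between these libraries, which may be technical.

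The labels do not expand the ligand names. PAM is the usual short name of a synthetic bacterial lipopeptide, and HMW of long-chain poly(I:C), a mimic of viral double-stranded RNA. Lipopeptides are sensed by Toll-like receptor 2 with receptor 1 or 6, which signals through MyD88 to NF-kB and drives inflammatory cytokines such as tumour necrosis factor and interleukin 6. Double-stranded RNA is sensed by Toll-like receptor 3 in endosomes and by the helicases encoded by Ifih1 and Ddx58 in the cytosol, which lead to type I interferon. Interferon then acts on the cells and induces a large group of antiviral genes. The comparison asks which of these programmes the pair showed beyond each ligand alone, and which ligand the pair resembled where the ligands differed.

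Values are counts of unique molecular identifiers (UMIs, tags that mark single cDNA molecules), scaled to a common library total (CPM) with TMM library factors. Totals were 142180 to 285141 UMIs in the PAM + HMW libraries, 144331 to 191207 with PAM, 105332 to 194725 with HMW and 61823 to 89530 in Ctrl. At this depth 4720 of 23481 genes could be tested. In bulk libraries, less RNA of a gene per cell and fewer cells that express it cannot be told apart. The HMW libraries were widely spread in the summed level of 39 interferon response genes. It ran from 7640 CPM in the lowest HMW library to 13349 CPM in HMW replicate 2, with a mean of 10442 CPM. The mean lay near the middle of that range, so neither end stood apart. Results that rest on HMW replicate 2, the highest, are also given without that library. The 10 markers of dendritic and macrophage-like cells were all detected, with summed levels of 14190 to 17070 CPM over the 12 libraries and none called between the pair and either ligand. Neutrophil markers summed to 669 to 1036 CPM. S100a9, S100a8 and Ngp were at means of 343, 271 and 125 CPM in the pair. Camp, Ltf, Retnlg and Mmp8 were also detected in each group. Elane was at 0 throughout, and Mpo at a mean of 1.55 CPM with HMW and at 0 in the other groups. Of the 7 tested neutrophil markers 2 were called lower in the pair than with HMW and 0 against PAM. Markers of B, T, natural killer, erythroid, mast and stromal cells were at 0 or near it, at most 14.04 CPM in sum. The 4 markers of plasmacytoid dendritic cells summed to 590 to 674 CPM in the pair and to at most 349 CPM in the other libraries. Both tested markers, Bst2 and Tcf4, were called higher than with PAM, and Bst2 also higher than with HMW. Tcf4 was at 78.0 CPM in the pair, 27.1 with PAM and 49.5 with HMW, and Bst2 is also in the interferon list. Siglech was at 0 in the pair and Ccr9 at 7.67 CPM. The part of such cells in the results was not tested.

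The pair exceeded both single ligands in 31 genes, 0.657% of those tested, and 15 of them were in the list of interferon response genes. A gene counted as above both when the pair was at least 2-fold higher than PAM and than HMW and its weaker comparison had a p under 0.05 in edgeR's quasi-likelihood test, adjusted after Benjamini and Hochberg. The genes were Ifi205, Gbp5, Cxcl10, Ms4a4c, Ch25h, Ifit1, Zbp1, Cd69, Ifih1, Isg15, Herc6, Usp18, Ccl4, Ddx58, Ifitm3, Ube2l6, Ccl5, Daxx, Xaf1, Parp12, Gbp3, Bst2, Ptgs2, Etnk1, Mx1, Dhx58, Ifi35, Uba7, Igtp, Cmpk2 and Mnda. Beside those 15, 3 belonged to the inflammatory list (Ccl4, Ccl5 and Ptgs2) and 2 to the list of the double-stranded RNA route (Ifih1 and Ddx58). In all 31 genes the 3 pair libraries lay above all 6 single-ligand libraries, which their selection in the same libraries favours. Of all tested genes 5.51% showed that separation. Against Ctrl, 17 of the 31 were called with neither ligand alone, 7 with PAM only, 3 with HMW only and 4 with both. Over all tested genes 8.01% were called higher with PAM and 0.953% with HMW. A gene that was not called can still differ. With HMW alone the log2 fold change was positive in 29 of the 31 (median 1.03, all genes 0.029). The number depended on libraries and scaling. It was 50 without HMW replicate 2, 23 without HMW replicate 3, 48 without PAM+HMW replicate 3 and 13 when libraries were scaled by their totals alone. Cxcl10, Gbp5, Ifih1, Ifit1, Isg15, Zbp1, Ccl4 and Ccl5 were called above both in each of the 16 alternatives that kept the fold threshold, while Ms4a4c, with 26 and 28 UMIs in the single-ligand groups, lost the call in 9.

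**Figure D1:**
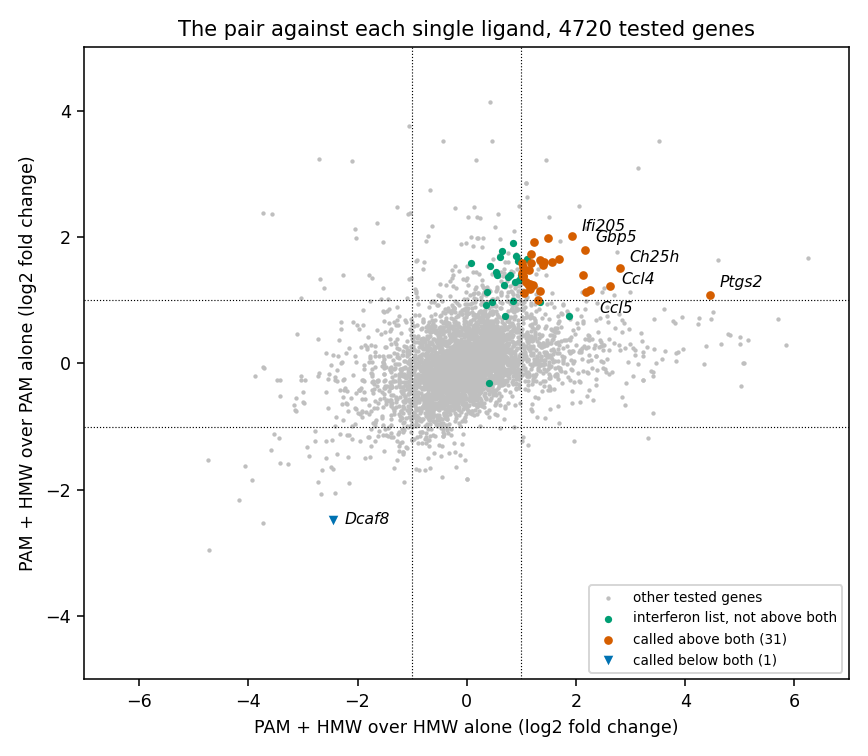
Each point is one of 4720 tested genes, placed by the log2 fold change of PAM + HMW over HMW (x axis) and over PAM (y axis); dotted lines mark 2-fold. Orange points are the 31 genes called above both single ligands, green points the other interferon response genes and the blue triangle Dcaf8, the 1 gene called below both.

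Among the antiviral effectors, Ifit1, which binds foreign RNA lacking cap methylation, was at 1425, 1579 and 1128 CPM in the pair. It was at 295, 382 and 356 CPM with PAM, at 416, 677 and 349 CPM with HMW and at 218 ± 29.1 CPM in Ctrl (SD, n = 3). The PAM and HMW libraries overlapped, and the lowest pair library was above the highest single-ligand library, HMW replicate 2. The pair was 3.94-fold higher than PAM (log2 fold change 1.98, SE 0.18) and 2.80-fold higher than HMW (1.49, SE 0.17), with an adjusted p of 4.04e-13 for the weaker comparison in edgeR. Mx1, a dynamin-like GTPase that blocks viruses, was at 1775 ± 151 CPM in the pair (SD, n = 3), 824 ± 45.3 with PAM and 854 ± 233 with HMW. Its rise over HMW was 2.06-fold, near the threshold, and the call was lost in 6 of the 16 alternatives by the fold threshold. The smaller log2 fold change was 0.806 with library totals alone, 0.927 without HMW replicate 3 and 0.98 without PAM+HMW replicate 2. Ifitm3, a membrane protein that hinders viral entry, was at 911 ± 78.0 CPM in the pair against 275 ± 20.5 with PAM and 402 ± 131 with HMW. Rsad2, which makes a chain-terminating nucleotide, was at 2017 ± 325 CPM in the pair, 803 ± 20.7 with PAM and 1033 ± 254 with HMW. Its log2 rise was 1.32 over PAM (edgeR, adjusted p = 2.06e-10) and 0.95 over HMW (adjusted p = 7.65e-07), just under the fold threshold. Without HMW replicate 2 the latter value was 1.24.

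Isg15 encodes a ubiquitin-like protein that is attached to other proteins, and the genes of that machinery were among the 31. Isg15 itself was at 681, 733 and 553 CPM in the pair, 171, 191 and 261 CPM with PAM, 316, 283 and 191 CPM with HMW and 139, 225 and 182 CPM in Ctrl. Neither ligand alone moved it past the threshold, and the pair was 3.11-fold above PAM and 2.53-fold above HMW (adjusted p of the weaker comparison in edgeR, 6.15e-09). Uba7, the activating enzyme, was at 204 ± 56.5 CPM in the pair against 75.9 ± 17.0 with PAM and 102 ± 19.6 with HMW. Ube2l6, the conjugating enzyme, was at 153 ± 58.9 CPM against 64.4 ± 8.53 and 62.2 ± 13.3. Herc6, a ligase for Isg15 in the mouse, and Usp18, which removes it, were at 196 ± 25.7 and 345 ± 41.5 CPM in the pair. Herc6 was at 50.7 ± 5.63 CPM with PAM and 74.6 ± 46.9 with HMW, and Usp18 at 144 ± 38.9 and 145 ± 31.9. These 5 genes of 1 pathway were grouped after their values were seen. With libraries scaled by totals alone, Isg15 kept the call and the other 4 lost it: Herc6 and Usp18 by the fold threshold (smaller log2 fold changes of 0.999 and 0.981), Ube2l6 and Uba7 also by the adjusted p (0.129 and 0.0795 in edgeR). Uba7 lost it in 6 of the 16 alternatives, among them those without PAM+HMW replicate 2 (adjusted p = 0.273) or HMW replicate 3 (log2 fold change 0.986), and Ube2l6 in 5, among them those without PAM replicate 2, HMW replicate 3 or PAM+HMW replicate 1 (adjusted p of 0.0786, 0.0642 and 0.248).

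The cytosolic RNA sensors rose as well. Ifih1, whose protein detects long double-stranded RNA, was at 351, 505 and 423 CPM in the pair, 164, 136 and 144 CPM with PAM, 166, 179 and 149 CPM with HMW and 55.4, 99.8 and 115 CPM in Ctrl. The single-ligand groups overlapped each other and the pair lay above both, 2.93-fold over PAM and 2.62-fold over HMW (adjusted p of the weaker comparison in edgeR, 2.08e-07). Ddx58 was at 439 ± 37.8 CPM in the pair, 146 ± 30.8 with PAM and 188 ± 66.0 with HMW, and the related helicase Dhx58 at 162 ± 63.2, 54.8 ± 4.54 and 75.3 ± 16.4 CPM. Dhx58 was the weakest of these calls and was lost in 7 of the 16 alternatives, among them the fits without HMW replicate 1, HMW replicate 3 or PAM+HMW replicate 2 (adjusted p of 0.0747, 0.182 and 0.916). Zbp1, a sensor of Z-form nucleic acids, was at 215 ± 44.9 CPM in the pair against 67.2 ± 19.2 and 71.9 ± 33.6. Ifi205, a member of the interferon-inducible p200 family, had the largest smaller difference of all 31. It was at 154, 179 and 226 CPM in the pair, 59.1, 35.2 and 50.0 CPM with PAM, 25.0, 76.2 and 37.2 CPM with HMW and 13.9, 49.9 and 28.8 CPM in Ctrl. No single-ligand or Ctrl library exceeded 76.2 CPM, and the pair was 4.03-fold over PAM and 3.81-fold over HMW (adjusted p of the weaker comparison in edgeR, 1.20e-06). The GTPases Gbp5 and Gbp3, which act on membranes of intracellular microbes, were also above both. Gbp5 was at 243 ± 41.2 CPM in the pair, 70.1 ± 8.91 with PAM and 51.5 ± 34.3 with HMW. The single ligands overlapped for Gbp5 (adjusted p = 0.616 between them in edgeR). Gbp3 was higher with PAM (170 ± 48.6 CPM) than with HMW (76.9 ± 30.5 CPM, adjusted p = 0.00144 in edgeR).

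Sequences before the start of these genes show which of them hold letters of the known interferon and NF-kB elements. The 250 bases before each start were taken from RefSeq (build GRCm38.p6) and searched on both strands for GAAANNGAA, the core of the interferon-stimulated response element, and for GGNNNTTCC, a loose form of the NF-kB site. Of the 12 genes furthest above both ligands, 9 had an entry. The interferon core was found in 6 of the 9 (Ifi205, Gbp5, Cxcl10, Ifit1, Ifih1 and Isg15) and in 9 of the 23 matched genes of the 31, against 7.16% of 27025 genes with an entry and 7.66% of 3614 tested genes. The NF-kB letters were found in 4 of the 9 and 8 of the 23, against 15.6% and 19.3%. A match is a description of letters and not of a bound site. Parts of 4 of these sequences are shown because Ifit1 holds the interferon core alone and the other 3 hold both motifs. They read 5′ to 3′ on the gene's strand, with bases that belong to either motif, on either strand, in capitals. Overlapping matches run together, and in Isg15 the capitals near the start are the NF-kB letters on the opposite strand.
Ifit1, chr19:34640759-34640888, plus strand: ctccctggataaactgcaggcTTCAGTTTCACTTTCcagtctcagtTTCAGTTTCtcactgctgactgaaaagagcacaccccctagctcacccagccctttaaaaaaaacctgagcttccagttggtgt
Isg15, chr4:156200819-156200948, minus strand: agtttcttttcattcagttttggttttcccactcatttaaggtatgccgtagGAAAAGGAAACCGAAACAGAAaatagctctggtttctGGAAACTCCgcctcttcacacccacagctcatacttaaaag
Cxcl10, chr5:92348974-92349112, minus strand: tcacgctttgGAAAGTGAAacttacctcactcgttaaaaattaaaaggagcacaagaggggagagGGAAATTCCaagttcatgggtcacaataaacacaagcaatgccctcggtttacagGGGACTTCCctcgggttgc
Gbp5, chr3:142496760-142496889, plus strand: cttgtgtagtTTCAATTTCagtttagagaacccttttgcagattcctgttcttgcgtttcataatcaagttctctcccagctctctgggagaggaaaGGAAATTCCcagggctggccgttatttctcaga
Matches of the interferon core began 109, 103 and 84 bases before the start in Ifit1, 78, 72 and 66 bases in Isg15, 213 bases in Cxcl10 and 164 bases in Gbp5.

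The chemokine genes Cxcl10, Ccl4 and Ccl5 were also above both ligands. Cxcl10, which attracts T cells through Cxcr3, was at 1551, 2187 and 1519 CPM in the pair. It was at 486, 598 and 589 CPM with PAM, 457, 717 and 423 CPM with HMW and 305, 511 and 336 CPM in Ctrl, so the single ligands overlapped Ctrl and only the pair stood apart. The pair was 3.13-fold over PAM and 3.24-fold over HMW (adjusted p of the weaker comparison in edgeR, 6.56e-11). Ccl4, a chemokine that attracts monocytes and T cells, was at 4612, 4539 and 4570 CPM in the pair, 1968, 1755 and 2178 CPM with PAM, 715, 776 and 730 CPM with HMW and 790, 1160 and 864 CPM in Ctrl. The pair libraries lay close together and far above the rest, and HMW alone lay just below Ctrl. Ccl5, a chemokine of the same family, was at 10880, 11220 and 12060 CPM in the pair, 5144, 4660 and 5500 CPM with PAM, 2478, 2605 and 2105 CPM with HMW and 2133, 2470 and 2074 CPM in Ctrl. Neither gene was called with HMW alone, and they were higher by log2 fold changes of 1.22 (SE 0.16) and 1.16 (SE 0.14) when it was added to PAM.

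Ccl4 and Ccl5 were also the 2 genes for which the pair differed from the sum of both log2 effects in the test over all genes. This interaction (pair minus PAM minus HMW plus Ctrl) in edgeR's fit was 1.55 for Ccl4 (SE 0.26, adjusted p = 6.03e-05) and 1.05 for Ccl5 (SE 0.22, adjusted p = 0.00553). These were 2 higher genes, 0.0424% of those tested, and 0 lower (0%), with 308 genes at an unadjusted p under 0.05. The interaction of Ccl5 missed the threshold without Ctrl replicate 2 (adjusted p = 0.0889) or PAM replicate 2 (0.0513), DESeq2 called 11 genes and a fit of the 12 libraries alone 11. For Cxcl10 and Isg15 the interaction was 1.15 in both, with 95% intervals of 0.46 to 1.83 and 0.47 to 1.83 and an adjusted p of 0.285. For Ifit1 it was 0.80 (0.17 to 1.43, adjusted p = 0.643). The interaction was positive in 26 of the 31 genes above both, a direction their selection by the pair libraries favours. The interaction takes in all 4 groups, among them the shallow Ctrl libraries.

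**Figure D2:**
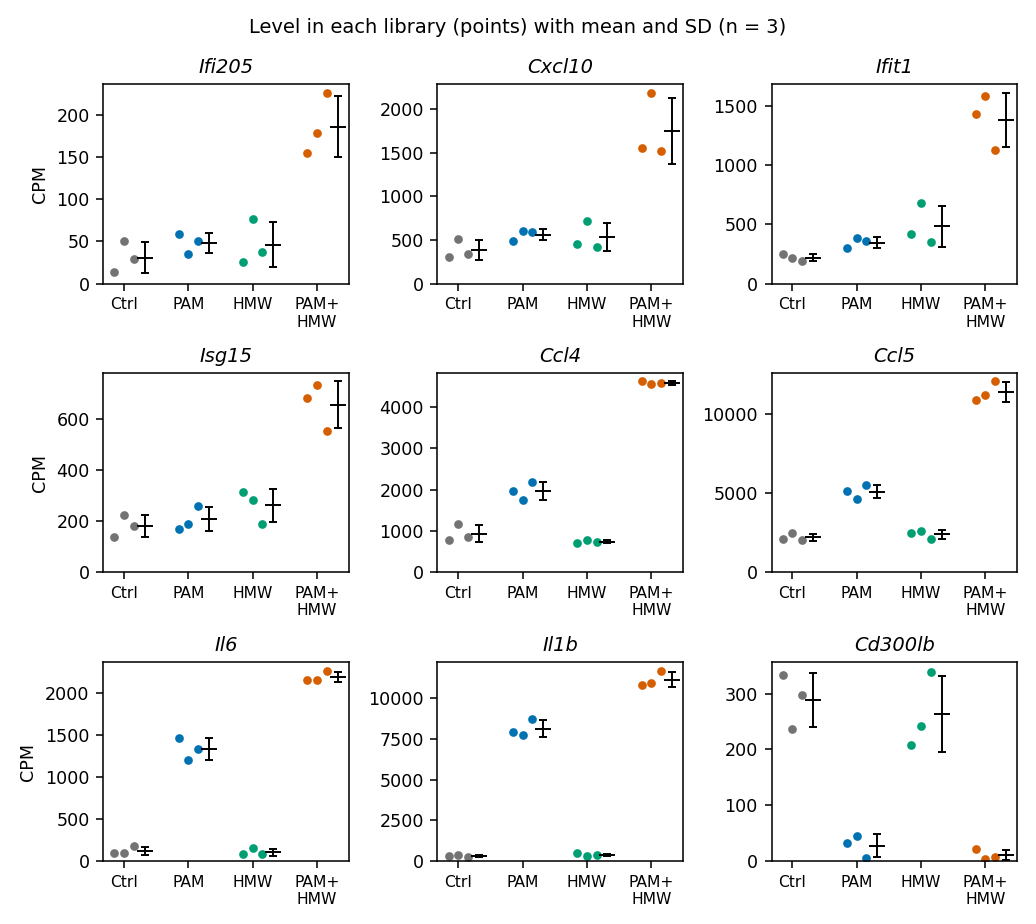
CPM of 9 genes in each library of Ctrl, PAM, HMW and PAM + HMW (points), with the mean and SD of 3 libraries (black). Ifi205, Cxcl10, Ifit1, Isg15, Ccl4 and Ccl5 are higher in all 3 pair libraries than in every single-ligand library. Il6, Il1b and Cd300lb in the pair are nearer to PAM than to HMW, with Il6 and Il1b above every PAM library.

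The enzyme genes Ptgs2 and Ch25h were also above both. Ptgs2, the inducible cyclooxygenase, was at 407, 420 and 395 CPM in the pair, 158, 216 and 195 CPM with PAM, 33.3, 22.4 and 4.65 CPM with HMW and 13.9, 24.9 and 19.2 CPM in Ctrl. The rise over PAM was 2.12-fold (adjusted p = 0.000478, edgeR), on top of a rise with PAM alone. Ch25h, which makes 25-hydroxycholesterol, was at 133 ± 19.7 CPM in the pair, 45.7 ± 6.23 with PAM and 20.3 ± 14.6 with HMW. Cd69, an early activation antigen, was at 216 ± 8.42 CPM against 84.1 ± 36.7 and 48.5 ± 6.11. Irf7, Mndal and Map2k1 lay just outside the threshold, with smaller log2 fold changes of 0.99, 0.98 and 0.98, and Mnda, Cmpk2 and Igtp just inside, with 1.00, 1.01 and 1.02. Without the fold threshold 77 genes were above both.

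Below both ligands stood 1 gene, Dcaf8, 0.0212% of those tested. It encodes a substrate receptor of a ubiquitin ligase and was at 0, 17.9 and 0 CPM in the pair, 45.9, 25.1 and 44.5 CPM with PAM, 8.32, 49.3 and 41.8 CPM with HMW. The pair overlapped HMW and the value rests on 4 UMIs in the pair. The call was lost with DESeq2 (adjusted p = 0.113) and in 6 of 9 fits that left out 1 library (PAM replicates 1 and 3, HMW replicates 2 and 3, PAM+HMW replicates 1 and 3, with adjusted p from 0.127 to 0.495). Without the fold threshold 2 genes were below both, and 71 had both unadjusted p-values under 0.05 in that direction.

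Compared with PAM alone, the pair raised 79 genes (1.67%) and lowered 4 (0.0847%), with 30 interferon list genes among the rises. Among genes whose mean reached 50 CPM in either group and whose groups did not overlap, the largest rises were in Nfxl1, Mlkl, Fcgr1, Ifi205, Pim1, Ifit1, Pyhin1, Herc6, Oasl1, 1500012F01Rik, Gbp5 and Oas3. Nfxl1, Pim1 and 1500012F01Rik rest on 4, 8 and 8 UMIs with PAM. With 1 library left out, the call was lost for Nfxl1 (without PAM replicate 2, adjusted p = 0.0702 in edgeR), for Fcgr1 and Pim1 (without PAM+HMW replicate 2, 0.0623 and 0.0718) and for 1500012F01Rik (without PAM replicate 3, 0.237, or PAM+HMW replicate 3, 0.0779), and all 4 also lost it when the libraries were thinned to the smallest total. Mlkl, the executor of necroptosis, was at 105, 103 and 52.9 CPM in the pair, 13.1, 35.2 and 5.56 CPM with PAM and 49.9, 49.3 and 37.2 CPM with HMW. Its log2 fold change over PAM was 2.09 (SE 0.53, adjusted p = 0.000585, edgeR) and over HMW 0.87 (adjusted p = 0.0824). Pyhin1, another p200 gene, was at 456, 447 and 349 CPM in the pair, 138, 85.5 and 94.5 CPM with PAM, 274, 475 and 228 CPM with HMW and 97.0, 87.3 and 67.2 CPM in Ctrl. The pair overlapped HMW only through HMW replicate 2 and lay above PAM. In edgeR it was at 1.98 over PAM (adjusted p = 9.78e-13) and 0.30 over HMW (adjusted p = 0.249). Fcgr1, the high-affinity IgG receptor, was lower with PAM (22.2 ± 10.3 CPM) than in the pair (93.9 ± 19.5), while HMW alone held 155 ± 66.5 CPM. Oasl1 and Oas3, of the oligoadenylate synthetase family that senses double-stranded RNA, were at 357 ± 56.6 and 190 ± 11.8 CPM in the pair against 92.2 ± 21.9 and 54.6 ± 20.2 with PAM.

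The falls against PAM were few and weak. Mmp9, a gelatinase, was at 70.2, 31.3 and 74.0 CPM in the pair and 131, 136 and 156 CPM with PAM, -1.26 on the log2 scale (SE 0.39; edgeR, adjusted p = 0.0344). The pair overlapped HMW (69.2 ± 13.5 CPM) and Ctrl (49.9 to 57.6 CPM). Tiprl, a regulator of phosphatases, fell by 1.81 on the log2 scale (adjusted p = 0.0241) and Ybey by 1.25 (adjusted p = 0.0471). Each of the 3 calls was lost in some of the fits that left out 1 library: Mmp9 in all 6 (adjusted p from 0.0511 to 0.354), Tiprl in 4 (0.083 to 0.351) and Ybey in 3 (0.203 to 0.649).

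Inflammatory cytokines that PAM induces were also high in the pair. Tnf was at 9519, 9888 and 9705 CPM in the pair, 7565, 8114 and 8617 CPM with PAM and 990, 1063 and 902 CPM with HMW. The pair libraries lay above the PAM libraries, but the difference did not pass the test (log2 fold change 0.26, SE 0.15, adjusted p = 0.516, edgeR). Il6 was at 2155, 2156 and 2259 CPM in the pair, 1463, 1207 and 1339 CPM with PAM and 83.2, 157 and 88.3 CPM with HMW. It was 1.64-fold higher than with PAM (adjusted p = 4.36e-05), under the fold threshold, while HMW alone was near Ctrl (97.0 to 182 CPM). Il1b and Il1a, the fever-inducing interleukins, were 1.37-fold (adjusted p = 0.00316) and 1.75-fold (adjusted p = 5.31e-07) above PAM. Irg1, the itaconate synthase, was 1.65-fold above PAM (adjusted p = 4.78e-08). Cd40, a costimulatory receptor, was at 563 ± 76.4 CPM in the pair and 360 ± 33.9 with PAM (log2 fold change 0.63, adjusted p = 0.0212). Tlr2, the lipopeptide receptor, was at 535 ± 84.8 and 430 ± 53.4 CPM and did not pass (adjusted p = 0.514). Ifnb1 and Tlr3 were near the detection limit, with 4 and 10 UMIs over the pair libraries, and were called in neither comparison. Il12b, with 41 UMIs in the pair, was at 62.7 ± 19.8 CPM, against 28.6 ± 3.89 with PAM (adjusted p = 0.524, edgeR) and 10.5 ± 7.29 with HMW, over which it rose 5.55-fold (adjusted p = 0.0159). That rise was lost without HMW replicate 2 (adjusted p = 0.0958) or PAM+HMW replicate 3 (0.0815), and with thinned libraries (0.182).

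Compared with HMW alone, the pair raised 402 genes (8.52%) and lowered 317 (6.72%). The split depended on the scaling: library totals alone, which moved the median of all genes by -0.24, gave 301 higher and 522 lower. The largest rises were Car4, Cxcl1, Il12a, Zfp811, Saa3, Cxcl3, Ppfia3, Il1b, Cp, Lox, Slc1a2 and Il1a, among them neutrophil chemokines, interleukins and the acute-phase protein gene Saa3. Saa3 was at 12410, 11220 and 12490 CPM in the pair, 12900, 10730 and 12480 CPM with PAM, 349, 381 and 330 CPM with HMW and 360, 462 and 384 CPM in Ctrl. The pair overlapped PAM fully and was 33.9-fold above HMW (log2 fold change 5.08, SE 0.21, adjusted p = 1.76e-60, edgeR). Cxcl1 and Cxcl3, which attract neutrophils, were 57.7-fold and 33.2-fold higher than with HMW. Against PAM they differed by log2 fold changes of 0.28 (adjusted p = 0.515) and 0.007 (adjusted p = 0.998). Il1b rose 28.4-fold and Il1a 22.7-fold over HMW. Car4, a membrane carbonic anhydrase, had 0 UMIs with HMW and 36 in the pair, at least 10.3-fold higher with 3 UMIs over the group as the limit. Il12a, the p35 subunit of interleukin 12, had 2 UMIs with HMW and 147 in the pair, which gives 63.2 times (17.2 to 526.5 from counting error).

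The 8 largest falls against HMW were in Cd300lb, Gpr65, Fos, Hebp1, Slc40a1, Ccr2, Daglb and Lpar6. Cd300lb, an activating receptor of myeloid cells, was at 21.1, 4.47 and 7.05 CPM in the pair, 32.8, 45.3 and 5.56 CPM with PAM, 208, 242 and 339 CPM with HMW and 332, 237 and 298 CPM in Ctrl. The pair and PAM overlapped and lay far under HMW and Ctrl, 26.7-fold under HMW (adjusted p = 1.21e-17, edgeR). Ccr2, the receptor by which monocytes leave the marrow, was 13.3-fold lower than with HMW, Fos, a subunit of AP-1, 16.7-fold and Daglb, a lipase that makes an endocannabinoid, 13.1-fold. Slc40a1, the iron exporter ferroportin, had 2 UMIs in the pair and 28 with HMW, a ratio of 0.0614 (counting interval 0.00709 to 0.243). Hebp1, Lpar6 and Gpr65 had 3, 3 and 1 UMIs in the pair against 39, 35 and 32 with HMW.

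In most genes that differed between the ligands, the pair was nearer to PAM than to HMW. PAM and HMW differed in 614 genes, 323 higher with PAM (6.84%) and 291 lower (6.17%), a split that library totals alone turned to 271 and 401. In 537 of the 614 (87.5%, exact binomial interval 84.6% to 90.0%, which treats genes as independent) the pair was nearer to PAM on the log2 scale. This is a description, because PAM and HMW levels entered both the choice of these genes and the distances. Against Ctrl, PAM alone changed 656 genes and HMW alone 46, so the choice favoured genes that PAM moves. With 0 standing for HMW and 1 for PAM, the median position was 0.967, and the middle 50% of genes lay between 0.728 and 1.13. Of the genes higher with PAM, 308 of 323 were nearer PAM (median 1.02), and of those lower with PAM, 229 of 291 (median 0.872). The pair differed from HMW but not from PAM in 459 genes, from PAM but not HMW in 15, from both in 4 and from neither in 136. A missed threshold does not show equality, so intervals were read too. In 270 of the 614 genes (44.0%) the 95% interval of pair minus PAM lay within 2-fold, and in 26 (4.23%) that of pair minus HMW did. Over all tested genes these shares were 40.8% and 28.9%, so the first was near its background. The choice of genes that differ between the ligands bears on both shares.

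**Figure D3:**
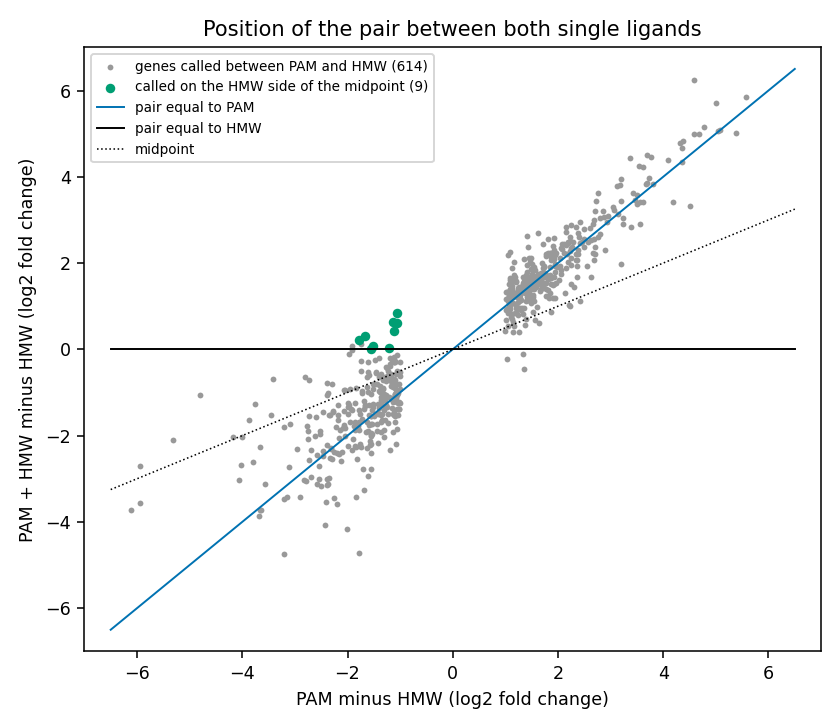
Each point is one of 614 genes called between PAM and HMW, placed by PAM minus HMW (x axis) and PAM + HMW minus HMW (y axis), both as log2 fold changes. Points on the blue line have the pair equal to PAM and points on the black line the pair equal to HMW; the cloud follows the blue line, and the 9 green genes lie on the HMW side of the dotted midpoint.

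A test of the pair against the midpoint of both ligands called 294 of the 614 genes on the side of PAM and 9 on the side of HMW. PAM and HMW levels chose these genes and also set the midpoint. Over all tested genes 9.47% were above their midpoint and 4.05% below, which counts level and not side. The 9 were Ifi204, Ifit3, Oas3, Oasl1, Oasl2, Pim1, Pyhin1, Samhd1 and Sp110, all lower with PAM than with HMW. Their positions ran from -0.807 for Oasl1 to 0.001 for Sp110, where the pair equalled HMW. All but Sp110 had a negative position, with the fitted pair level above both ligands. The excess was slight in Samhd1 (-0.022) and Ifit3 (-0.05). Samhd1 encodes a nucleotide hydrolase that restricts viruses, and Oasl2 another oligoadenylate synthetase-like protein. The share nearer PAM ran from 85.1% to 91.8% with 1 library left out, the highest without HMW replicate 2.

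The effect of each ligand was then read with and without the other, in comparisons that share no library. PAM alone changed 656 genes against Ctrl, 378 of them higher (8.01%) and 278 lower; with RLE factors 307 were higher and 335 lower. Added to HMW it moved 639 of the 656 the same way, and 426 were called again in that direction. The slope of the effect with HMW present on the effect alone was 0.716 through the origin (Pearson's r = 0.888 across genes, which are not independent replicates). HMW alone raised 45 genes (0.953%) and lowered 1. Added to PAM it moved 41 of the 46 the same way, and 27 were called again, among them Ifit1, Mx1, Irf7, Igtp and Trim30a. The slope was 0.42, with r = -0.254, and some genes with few UMIs were far larger with HMW alone, such as Sfmbt1 (log2 fold change 5.56 alone and -0.04 on PAM). Genes in both sets were chosen on the effect alone, which by construction favours larger values there. HMW minus Ctrl held 20 called genes without HMW replicate 2, and the slope was then 0.562. Without HMW replicate 3 these values were 65 and 0.356.

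By gene list, the pair differed from PAM mainly in the interferon list and from HMW mainly in the inflammatory lists. Of 39 tested interferon response genes, 30 rose and 0 fell in the pair against PAM (median log2 fold change 1.40, all genes -0.017), with Ifi205, Ifit1, Herc6 and Oasl1 rising most. Against HMW, 18 rose and 0 fell (median 0.95, all genes -0.043), led by Gbp3, Gbp5, Ifi205 and Gbp2. With library totals alone that number was 10. Irf7, a transcription factor that amplifies interferon production, and Ifi47, an interferon-inducible GTPase, rose over PAM. Of 25 tested inflammatory genes, 3 rose over PAM, Ccl4, Ccl5 and Ptgs2 (median 0.46), and 18 rose over HMW (median 2.66), while Vegfa, an angiogenic factor, fell 6.62-fold against HMW. Of 25 NF-kB subunits and feedback inhibitors, 0 changed against PAM (median 0.04) and 14 rose against HMW, with Nfkbiz 11.1-fold, Socs3 8.47-fold, Irak3 6.07-fold and Zc3h12a 5.93-fold higher, and Nfkbid lower.

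Over all genes tested, 1.67% rose against PAM, and 8.52% rose and 6.72% fell against HMW. The counts of 1 or 2 members against HMW in the class II, glycolysis and sterol lists are near those shares. In the list of the lipopeptide route, Cd14, Ikbkg, Tlr2 and Tlr1 rose against HMW, 4 of 12. Cd14, the co-receptor that hands lipopeptides on, was at 2754 ± 122 CPM in the pair, 2270 ± 209 with PAM and 488 ± 79.6 with HMW. Tlr6 rose against PAM, from 3 UMIs to 23, a ratio of 6.27 (counting interval 1.89 to 32.6). In the double-stranded RNA route, Eif2ak2, the RNA-activated kinase PKR, Ddx58 and Ifih1 rose against PAM, 3 of 17, while Dhx9 fell against HMW. Of 16 genes of dendritic cell maturation, 0 were called against PAM and 9 rose against HMW, among them Ccl17, Cd40, Ccl22 and Socs1. Of 16 class I presentation genes, Tap1 and Psme1 rose against PAM, and Psme2, Tap2 and Nlrc5 against HMW. Tap1, a peptide transporter, was at 297 ± 56.5 CPM in the pair, 127 ± 18.9 with PAM and 173 ± 34.3 with HMW. Of 8 class II genes, 0 were called against PAM, and H2-DMb1 rose against HMW. Of 9 genes of arginine, nitric oxide and itaconate metabolism, 5 rose against HMW, among them Slc7a2, Slc7a11, Irg1 and Sod2, and 0 against PAM. Among scavenger and C-type lectin receptors Marco, Clec4e, Cxcl16 and Olr1 rose against HMW, with Marco 10.7-fold higher, and Clec7a and Clec4a2 fell. In the lysosome and phagocytosis list Atp6v0d2, Mrc1 and Fcgr3 were among the members that fell against HMW, while Fcgr2b rose. Against HMW, Pfkl and Slc16a3 rose in the glycolysis list of 19, Ch25h rose and Abcg1 fell in the sterol list of 15, and Mki67 rose and Pcna fell among 5 tested cell cycle genes. None of 21 ribosomal protein genes was called in either comparison.

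**Figure D4:**
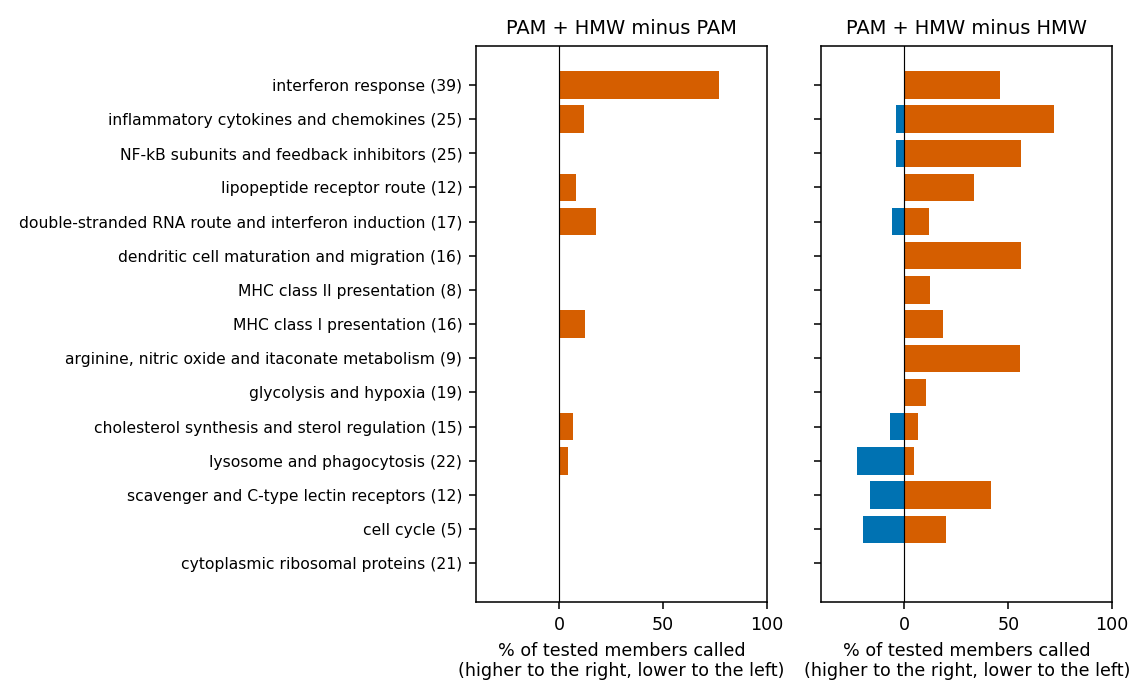
Share of tested members of 15 gene lists (number tested in parentheses) called higher (orange, to the right) or lower (blue, to the left) in PAM + HMW against PAM and against HMW. The interferon list leads against PAM (30 of 39), and the inflammatory, NF-kB, maturation and arginine lists lead against HMW.

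Libraries with a further ligand show when HMW added to PAM had an effect, in cells that share no library with the pair. On PAM + Zymosan, HMW raised 228 genes (4.83%), with 30 of the 31 genes above both and 37 of 39 interferon genes among them (median log2 fold change 2.05). On PAM + LPS it raised 0 genes (0%), on PAM + SeV 6 (0.127%), on PAM + cGAMP 0 (0%) and on PAM + CpGB 0 (0%), and in each of these 0 of the 31 and 0 of the 39 were called. On PAM + LPS 4 of the 39 had a positive log2 fold change (median -0.20, all genes -0.031), and on PAM + CpGB 32 of the 39 (median 0.12, all genes 0.002). Without PAM+HMW+Zymosan replicate 1 the calls on PAM + Zymosan numbered 161 in place of 258 in both directions, with 29 of the 31 and 35 of the 39 among the rises. At an unadjusted p under 0.05 in edgeR there were 391, 384, 229 and 224 of 4720 tested genes on PAM with LPS, SeV, cGAMP and CpGB. A share of 0.05 of genes would pass that threshold without any effect. The difference between the log2 effect of HMW on PAM + LPS and on PAM, taken with its sign, was also tested. It was negative in 178 called genes and positive in 14, and for SeV, cGAMP and CpGB negative in 67, 83 and 52. A negative difference can stand for a weaker rise or for a fall. On PAM + Zymosan 5 genes had a positive difference.

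**Figure D5:**
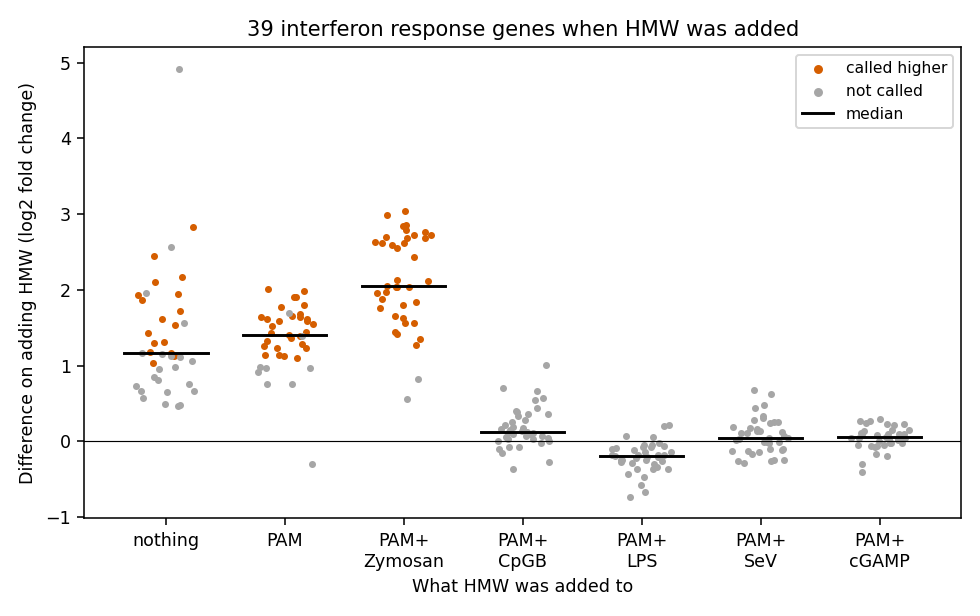
Log2 fold change on adding HMW (y axis) for 39 interferon response genes, by what HMW was added to (x axis); orange points were called higher, grey points were not, and bars are medians. The genes rise on PAM (30 called) and PAM + Zymosan (37 called) and none is called on PAM with CpGB, LPS, SeV or cGAMP, where the medians are 0.12, -0.20, 0.05 and 0.06.

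The level before HMW was added differed between these contexts. The 39 interferon genes summed to 8280 ± 250 CPM with PAM and 21066 ± 2247 in the pair. With PAM + Zymosan they summed to 6506 ± 450 CPM and with HMW added to 31019 ± 14610, from 18802 to 47205 over the 3 libraries. With PAM + CpGB they summed to 16080 ± 1361 CPM, with PAM + SeV to 71696 ± 5823, with PAM + LPS to 73972 ± 12530 and with PAM + cGAMP to 86976 ± 3280. Adding HMW gave 17477 ± 2279, 68273 ± 7846, 64233 ± 1647 and 86036 ± 3553 CPM. The 4 contexts in which none of the 39 was called were those with the higher sums before HMW was added, and the part of that level in the result was not tested. Cxcl10, as an example, was at 370 ± 36.4 CPM with PAM + Zymosan and 2425 ± 1922 with HMW added, against 13821 ± 1021 and 14396 ± 739 with PAM + cGAMP.

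PAM added to HMW was read in the same contexts. Of the 402 genes that the pair raised over HMW, 217 rose when PAM was added to HMW + SeV, 182 on HMW + cGAMP, 129 on HMW + Zymosan, 19 on HMW + LPS and 6 on HMW + CpGB. Over all tested genes the rises in these contexts numbered 307 (6.5%), 263 (5.57%), 181 (3.83%), 20 (0.424%) and 7 (0.148%). The median log2 fold change of the 402 was 1.19, 0.98, 0.80, 0.24 and 0.13 in that order, against 1.62 in the pair, the comparison that chose them.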

How the data were processed

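Per the labels' protocols, total RNA of stimulated cells was reverse transcribed with template switching, pooled, amplified, tagmented and sequenced on an Illumina NextSeq. The submitters' processing notes name BWA 0.7.15 and mm10, without their role. The values deposited by the authors are whole-number UMI counts per gene symbol, not normalized. How reads shared by related genes (Ifit, Oas, Gbp and p200 families) were counted is not given in the sources used here. In R, edgeR 4.0.16 fitted a quasi-likelihood model to all libraries of the 64 groups with TMM factors, 1 coefficient per group and filterByExpr (4720 of 23481 genes, 95.7% of UMIs). Calls needed a Benjamini-Hochberg adjusted p under 0.05 and a log2 fold change of at least 1, the interaction, midpoint and effect-difference tests only the former. Intervals of UMI ratios and floors cover counting error only. Intervals of log2 fold changes and of the interaction came from the standard errors of edgeR's fit, which also hold the spread between libraries. Scripts were tested on simulated data. Members, gene lists and rules were chosen with earlier results of these data known. Named genes were the 12 furthest above both, up to 12 rises and 8 falls per comparison (mean of at least 50 CPM in 1 group, no overlap), up to 4 per list and direction, and 14 by name; other genes above both or on the HMW side were named after their values were seen. The tests against the midpoint and of effect differences were chosen after seeing the data. The list of mitochondrial transcripts had no symbol in the counts.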

Additional observations from a re-analysis of the deposited data

Results flagged for a closer look

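Genes whose response to HMW differed with PAM present are listed here because a test of the difference itself passed. For Ccl4 the log2 effect of HMW was 1.55 larger on PAM than without it, and for Ccl5 1.05 larger. The effect of HMW on PAM plus a further ligand differed from its effect on PAM. Taken with its sign, the log2 effect for LPS was lower in 178 genes and higher in 14. For SeV it was lower in 67 and higher in 7, for cGAMP lower in 83 and higher in 1. For CpGB it was lower in 52 and higher in 2, and for Zymosan higher in 5 genes. These 5 tests share the PAM and PAM + HMW libraries, so their numbers are not independent of each other.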

How the results depend on the processing

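Depth limits genes with few UMIs and comparisons with the shallow Ctrl libraries. Of the values for named genes, 95 in the fit of all groups and 2 to 95 in each alternative, no called one changed sign. The uncalled Ifnb1 and Tlr3 did in some, Ifnb1 against PAM to 2.96 and Tlr3 against PAM to -0.77 with thinning, and Ifnb1 against HMW to 0.97 without HMW replicate 3 and 0.63 without PAM+HMW replicate 3; Tlr3 against HMW ran from -0.69 to -0.02 in the 5 alternatives that turned it. Without a fold threshold 145 genes differed between the pair and PAM, 77 were above both ligands and 2 below both. Scaling by library totals alone left 13 above both; in PAM minus Ctrl the split of higher and lower genes was 283 and 371 with it, 307 and 335 with RLE factors and 256 and 307 with DESeq2, against 378 and 278, and in pair minus Ctrl it was 378 and 579 against 507 and 352. With the 12 libraries thinned to 61823 UMIs each, which leaves fewer UMIs to test, 424 genes differed between the pair and HMW and 388 between PAM and HMW. Genes with an interaction numbered 4 with RLE factors, 11 with the 12 libraries alone (8 higher, 3 lower) and 11 with DESeq2 (10 higher, 1 lower). Below both stood 2 genes with the 12 libraries alone and 0 with no filter, with thinning and with DESeq2. The share nearer PAM was 90.0% with the 12 libraries alone and 83.5% with thinning. The slope of the PAM effect (0.716) was 0.726 with RLE factors, 0.721 with library totals, 0.668 with no filter, 0.794 with the 12 libraries alone, 0.667 with thinning and 0.77 with DESeq2; that of the HMW effect (0.42) was 0.491, 0.489 and 0.653 with no filter, the 12 libraries alone and DESeq2. With PAM and HMW combinations fitted alone, HMW changed 0 genes on PAM + LPS (4 in the fit of all groups) and 2 on PAM + SeV (6). Beyond the constructions named, the cause was not tested. Leaving out 1 library gave 70 to 111 genes between the pair and PAM, 622 to 711 between the pair and HMW, 531 to 577 between PAM and HMW, 1 to 5 with an interaction, 527 to 598 for PAM, 20 to 65 for HMW and 757 to 834 for the pair against Ctrl, 23 to 50 above both, 0 to 1 below both, 85.1% to 91.8% nearer PAM, slopes of 0.626 to 0.726 and 0.356 to 0.562, and 161 to 311 genes for HMW on PAM + Zymosan. Same-numbered libraries showed no shared deviation (correlations of -0.017 to 0.032). Counting error at this depth can hide one, so the correlations cannot settle whether the numbers pair libraries. With the replicate number as a block, 85 genes differed between the pair and PAM, 727 between the pair and HMW and 618 between PAM and HMW. In that fit 31 were above both, 2 had an interaction and 95 of 95 values for named genes kept their call.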
